A study of Mus musculus with 12 samples.

Results

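Acetylcholinesterase and the proteins that hold it in place were followed at the RNA level in the tibialis anterior of mice, the fast muscle at the front of the shin. The 4 genes are Ache, Bche, Colq and Prima1, taken by name from the 26264 gene symbols of the count tables. All 4 passed the filter on low counts that left 13499 genes for testing. They were chosen by their measured gel and PBS levels, above all those of Ache and Prima1, so gel over PBS is described here without a test. The comparisons with uninjured muscle reuse the gel or PBS libraries that entered that choice, so their p-values are not independent of it.

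The data are 12 bulk RNA-seq libraries in 3 groups of 4. Gel libraries came from muscle given 50 µl of a matrix gel at 6 mg per ml, prepared from the extracellular matrix of tissue. PBS libraries came from muscle given 50 µl of phosphate-buffered saline, the vehicle. Uninjured libraries came from muscle labelled as an uninjured control. Gel went to the left leg and PBS to the right, and a gel and a PBS library that share a number are read as legs of the same animal from the deposited names, which put uninjured muscle, taken from the left leg, in other animals. Left and right thus cannot be told apart from gel and PBS. The series title speaks of injuries that are acute or come from disuse. The kind of injury in these animals, the time of collection, and strain, genotype, sex and age are not stated in the labels.

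Acetylcholinesterase is the enzyme that breaks down acetylcholine and so ends each signal from motor nerve to muscle. Its catalytic subunits are secreted unless an anchor holds them. ColQ, a collagen-like tail, fixes the enzyme to the basal lamina of the neuromuscular junction, where it binds the heparan sulfate proteoglycan perlecan and the receptor kinase MuSK. PRiMA, a small transmembrane protein, fixes it to cell membranes instead, and is best known as the anchor of the enzyme in brain. Butyrylcholinesterase, the product of Bche, is a related enzyme of wider specificity that can use the same anchors.

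Library totals ran from 15626086 to 22182483 counts. Among the gel libraries number 3 was unlike the rest, at 5.39 on a first principal component with 50.7% of the variance, where gel libraries 1, 2 and 4 lay at -91.4 to -67.4. The tissue label was checked with 8 genes of mature fibres (among them Acta1 and Ckm), whose summed level was 98779 to 136195 CPM (counts scaled to a common library size) in gel, 133876 to 172027 in PBS and 161230 to 176380 in uninjured libraries. In bulk tissue, fewer cells of a type and less RNA per cell cannot be told apart.

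RefSeq held a promoter window, 250 bases before to 50 bases after the start site, for 3 of the 4 genes. They are shown because the levels of these genes moved apart between the groups. Coordinates are of GRCm38.p6, which is not the build the counts were made on (mm39). Capitals mark E-boxes (CANNTG, a palindrome, so both strands are covered), the motif to which myogenic and other helix-loop-helix factors can bind.
Ache promoter, chr5:137288004-137288303, plus strand: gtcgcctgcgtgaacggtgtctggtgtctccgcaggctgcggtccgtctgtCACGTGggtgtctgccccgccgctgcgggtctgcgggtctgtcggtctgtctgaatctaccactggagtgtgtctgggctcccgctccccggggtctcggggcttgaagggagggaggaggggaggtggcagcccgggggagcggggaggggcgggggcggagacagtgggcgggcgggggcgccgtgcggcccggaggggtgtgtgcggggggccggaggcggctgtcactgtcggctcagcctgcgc
Bche promoter, chr3:73708366-73708665, minus strand: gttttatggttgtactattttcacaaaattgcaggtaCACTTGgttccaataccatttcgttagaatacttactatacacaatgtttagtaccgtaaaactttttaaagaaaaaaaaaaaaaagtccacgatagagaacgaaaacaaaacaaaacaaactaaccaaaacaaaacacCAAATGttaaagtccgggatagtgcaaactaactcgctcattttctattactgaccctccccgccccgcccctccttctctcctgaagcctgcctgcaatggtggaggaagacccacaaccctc
Prima1 promoter, chr12:103242097-103242396, minus strand: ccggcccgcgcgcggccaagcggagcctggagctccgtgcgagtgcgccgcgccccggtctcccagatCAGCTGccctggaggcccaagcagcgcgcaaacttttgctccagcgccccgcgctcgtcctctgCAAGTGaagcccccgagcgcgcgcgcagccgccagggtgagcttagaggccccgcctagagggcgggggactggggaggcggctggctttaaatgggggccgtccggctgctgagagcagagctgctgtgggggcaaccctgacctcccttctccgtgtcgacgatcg

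The Ache window held 1 E-box, that of Bche 2 and that of Prima1 2, and 72.3% of 32851 RefSeq windows of this length held at least 1. The window of Ache was 74.0% G and C, that of Prima1 71.7% and that of Bche 39.3%, beside a median of 52.7% over all windows. GC-boxes (GGGCGG or CCGCCC, either strand), with overlapping matches counted, numbered 4 in Ache, 2 in Bche and 1 in Prima1. At least 4 were held by 5.49% of windows. None overlapped an E-box, but those at -31 and -27 in Ache share bases, as do those at -14 and -9 in Bche. The N-box of synaptic muscle genes (TTCCGG or CCGGAA) was in none of the 3 windows and in 14.9% of all. These matches describe letters, not sites of binding, and sequence outside the windows was not searched.

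Ache, the enzyme itself, was the most abundant of the 4 genes per length and was highest in gel muscle. It had 130.3, 149, 189 and 129 CPM in gel libraries 1 to 4, 101, 107, 52.3 and 74.9 CPM in PBS libraries 1 to 4, and 64.3, 62.8, 72.5 and 69.9 CPM in uninjured libraries 1 to 4. Each gel library was above each PBS and each uninjured library, whereas the PBS libraries lay on either side of the uninjured ones. The mean was 149 ± 27.7 CPM in gel, 84.0 ± 25.4 CPM in PBS and 67.4 ± 4.58 CPM in uninjured muscle (SD, n = 4 each).

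Against uninjured muscle, Ache rose in gel muscle by 1.15 ± 0.19 (SE) on the log2 scale, a fold of 2.22 (edgeR adjusted p = 0.000968). PBS muscle differed from uninjured muscle by 0.32 ± 0.19, with a 95% interval of -0.09 to 0.73 (adjusted p = 0.354), which spans 0. Gel over PBS was 0.83 ± 0.19, and the gel leg was above the PBS leg in 4 of 4 animals. By animal, the log2 difference was 0.36, 0.48, 1.85 and 0.79, with animal 3 far above the others. In that animal the gel leg had the highest and the PBS leg the lowest Ache level of the 12 libraries.

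Bche showed another order, with gel and PBS muscle alike above uninjured muscle. Its level was 5.13, 7.62, 9.16 and 6.77 CPM in gel libraries 1 to 4, 10.2, 5.98, 7.90 and 4.32 CPM in PBS libraries 1 to 4, and 2.73, 2.64, 2.30 and 2.66 CPM in uninjured libraries 1 to 4. The uninjured libraries lay close together and below every gel and PBS library, and gel and PBS overlapped throughout their range. In PBS muscle Bche rose by 1.46 ± 0.26 over uninjured muscle on the log2 scale (edgeR adjusted p = 0.00468). In gel muscle it rose by 1.47 ± 0.26 (adjusted p = 0.00130), which is 2.77-fold. Gel over PBS was 0.01 ± 0.25 (SE), and by animal the difference ran from -0.97 to 0.64.

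Colq, which encodes the collagen tail of the synaptic enzyme, was not called in either comparison with uninjured muscle. It had 12.4, 10.4, 14.2 and 11.3 CPM in gel libraries 1 to 4, 10.2, 15.8, 5.78 and 9.06 CPM in PBS libraries 1 to 4, and 8.13, 5.34, 8.92 and 8.74 CPM in uninjured libraries 1 to 4. The PBS libraries spread widely and covered the range of the gel libraries, which in turn all lay above the uninjured libraries. Gel over uninjured was 0.63 ± 0.25 on the log2 scale and did not pass over all genes (edgeR adjusted p = 0.0768). It passed when the 2 groups were fitted alone (0.0325), and without PBS library 2 (0.0409) or 3 (0.0390). PBS over uninjured was 0.39 ± 0.25 (adjusted p = 0.384), with a 95% interval of -0.14 to 0.93. Gel over PBS was 0.24 ± 0.25, positive in 3 of 4 animals and -0.59 in animal 2.

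Prima1, the membrane anchor, was lower in gel and in PBS muscle than in uninjured muscle. Its counts were 6, 6, 10 and 6 in gel libraries 1 to 4, 36, 51, 61 and 31 in PBS libraries 1 to 4, and 140, 102, 83 and 78 in uninjured libraries 1 to 4. These are 0.364 ± 0.172 CPM in gel, 2.48 ± 0.814 CPM in PBS and 6.16 ± 1.29 CPM in uninjured muscle (SD, n = 4 each). The 3 groups did not overlap at any point, with every gel library below every PBS library and every PBS library below every uninjured one.

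In gel muscle Prima1 fell by 4.11 ± 0.37 on the log2 scale against uninjured muscle, which is 17.3-fold lower (edgeR adjusted p = 1.36e-05), with 2 of the 13499 tested genes at a lower fold change. In PBS muscle it fell by 1.31 ± 0.31, or 2.49-fold (adjusted p = 0.0188). It no longer passed when PBS library 1 was left out (-1.18, adjusted p = 0.0651), nor without uninjured library 1 (-1.17, 0.0682) or 2 (-1.32, 0.0527). Gel over PBS was -2.80 ± 0.37, and by animal the difference was -2.07, -2.88, -2.32 and -2.59, lower in the gel leg of 4 of 4 animals. At 6 to 10 counts a library, the level within the gel group is known only coarsely. Most low counts in these libraries were even, as all of these were, so a count may not stand for 1 fragment.

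**Figure D1:**
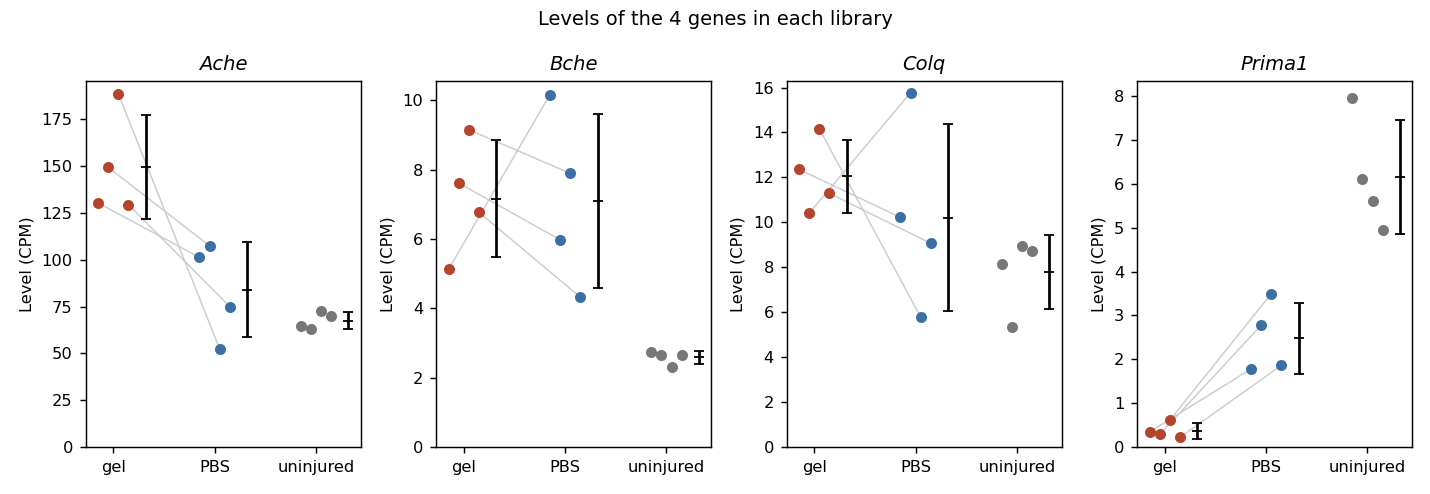
Level in CPM (vertical axis, from 0) of each gene in the 12 libraries, by group. Points are libraries, thin lines join the gel and PBS library of an animal, and bars give the mean and SD of 4 libraries. The gel libraries stand above all others for Ache (129 to 189 CPM) and below all others for Prima1 (0.218 to 0.610 CPM), while for Bche the uninjured libraries stand below the rest (2.30 to 2.73 CPM).

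Set against all genes, 1 of the 4 rose and 1 fell in PBS over uninjured muscle, where 2.79% of the 13499 genes were called higher and 3.39% lower (6.17% in all). In gel over uninjured muscle 2 rose and 1 fell, where 14.5% of genes were called higher and 11.1% lower. No overlap of libraries was seen for 2 of the 4 in PBS over uninjured muscle (20.6% of all genes) and for 4 of 4 in gel over uninjured muscle (23.0%). For gel over PBS 1 of the 4 lay wholly higher, beside 10.4% of all genes, and 1 wholly lower, beside 9.74% (20.1% in all), and nothing is read from these counts since they come from the comparison that chose the genes. The counts against uninjured muscle reuse the gel or PBS libraries of that choice, so nothing is read from them either. The 3 comparisons share libraries, so their values are not independent of each other.

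**Figure D2:**
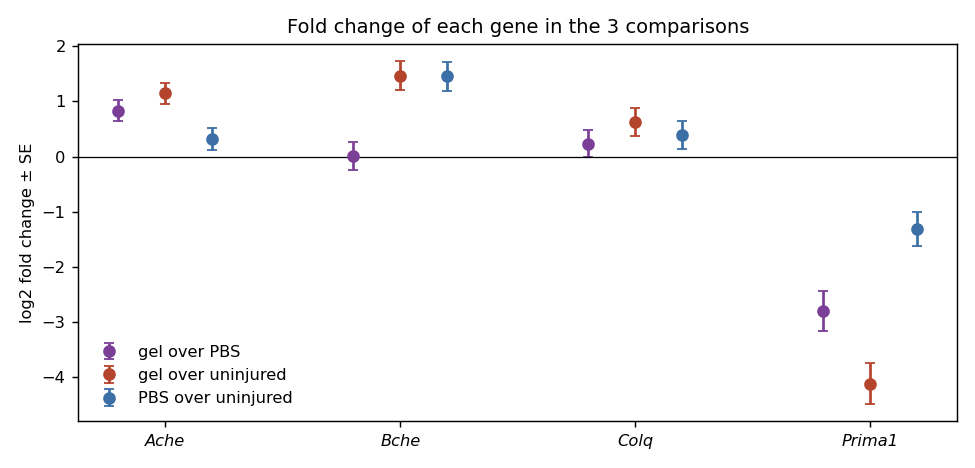
The log2 fold change of each gene (vertical axis, ± SE) in gel over PBS, gel over uninjured and PBS over uninjured muscle, from the fit of all 12 libraries. Ache, Bche and Colq lie at or above 0 in the 3 comparisons, and Prima1 lies at -2.80, -4.11 and -1.31.

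Levels were compared between the genes per kilobase of exon, with exon lengths from GENCODE vM21, since the labels do not name the annotation used for counting. On this scale Ache stood at 32.3 ± 5.99 CPM per kb in gel, 18.2 ± 5.49 in PBS and 14.6 ± 0.990 in uninjured muscle (SD, n = 4 each), first of the 4 genes in each group. Prima1 came second in uninjured muscle, at 4.91 ± 1.03 CPM per kb beside 2.05 ± 0.437 for Colq. In gel muscle the order of the anchors was turned round, with Prima1 at 0.290 ± 0.137 and Colq at 3.17 ± 0.425 CPM per kb. This turn depends on the exon lengths. Without them Colq was already above Prima1 in the mean of uninjured muscle (7.78 ± 1.66 against 6.16 ± 1.29 CPM). PBS muscle lay between, at 1.98 ± 0.650 for Prima1 and 2.68 ± 1.09 for Colq, whose libraries overlapped. Bche was last in PBS and uninjured muscle, at 1.05 ± 0.374 and 0.383 ± 0.0286 CPM per kb.

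The balance of the anchors was also followed as Prima1 counts per 100 Colq counts within each library, which needs no scaling between libraries. It was 2.76, 2.73, 4.31 and 1.94 in gel libraries 1 to 4, 17.4, 17.6, 60.4 and 20.5 in PBS libraries 1 to 4, and 97.9, 115, 62.9 and 56.5 in uninjured libraries 1 to 4. Gel libraries lay below all others, and PBS library 3 lay within the range of the uninjured libraries while the other PBS libraries lay below it. On the log2 scale with 0.5 added to each count, gel minus uninjured was -4.72, a ratio 26.3-fold lower (two-sided exact permutation test, p = 0.0286, the smallest that 4 against 4 libraries can give). PBS minus uninjured was -1.67 (exact p = 0.0571), and -2.09 without PBS library 3 (exact p = 0.0286). Adjusted over these 2 tests, both gave 0.0571, which does not pass 0.05, although the ratio was lower in 4 of 4 gel libraries than in any uninjured library. Gel minus PBS was -3.05, described only. Prima1 was chosen by its level in these gel and PBS libraries. The exact p-values reuse that choice, and nothing further is read from them.

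Ratios to the enzyme differed in kind. Ache counts per 100 Colq counts ran from 1054 to 1435 in gel, 681 to 991 in PBS and 792 to 1175 in uninjured libraries, so that gel lay above PBS without overlap and overlapped the uninjured range. Bche counts per 100 Ache counts ran from 3.93 to 5.23 in gel, 5.57 to 15.1 in PBS and 3.17 to 4.24 in uninjured libraries. PBS muscle thus held more Bche per Ache than either other group in each library. These ratios are given as descriptions.

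**Figure D3:**
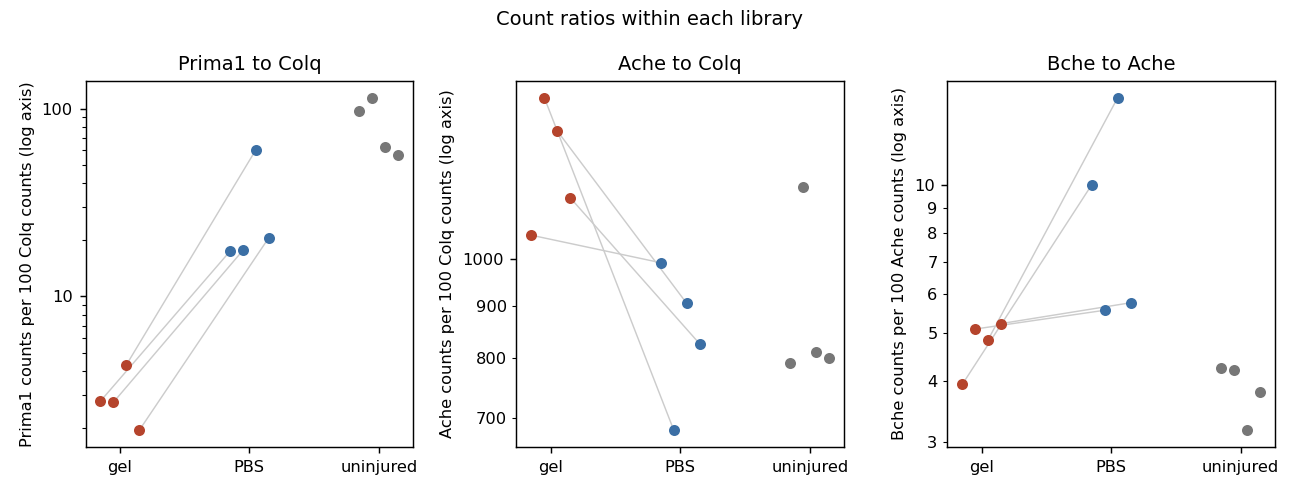
Counts of one gene per 100 counts of another in each library, on log axes, for Prima1 to Colq, Ache to Colq and Bche to Ache, by group. Thin lines join the gel and PBS library of an animal. Prima1 per 100 Colq is 1.94 to 4.31 in gel, 17.4 to 60.4 in PBS and 56.5 to 115 in uninjured libraries.

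Within groups the genes did not vary together in the same way. After removal of group means, Pearson's r between Ache and Colq over the 12 libraries was 0.818, and between Ache and Prima1 it was -0.06. Libraries of an animal and the scaling of a library are shared by the points, and no p is given. PBS library 3 was lowest of its group for Ache and Colq and highest for Prima1.

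By Pearson's r of log2 CPM over the 12 libraries, among 12313 other genes with a mean of at least 1 CPM, Prima1 was most like C1qtnf12 (0.972), Smarcd3 (0.970) and Sys1 (0.969). Bche was most like Nceh1 (0.933), Tnfaip2 (0.933) and Stom (0.913). Colq was most like B4galnt3 (0.941), 4921531C22Rik (0.876) and Disp1 (0.866). For Ache the nearest were Mir8116 (0.944), Neu2 (0.938) and Parp8 (0.922). The points share the group differences and the libraries, so these are descriptions of likeness.

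Mir8116, a microRNA locus, lies within the Ache gene in RefSeq, and Ufsp1, which encodes a protease for the ubiquitin-like modifier UFM1, lies 202 bases from it. The labels do not say whether counting used strand, so reads of Ache and of genes that overlap it cannot be told apart. Mir8116 had 82 to 103 counts in gel, 14 to 64 in PBS and 10 to 28 in uninjured libraries, where Ache had 2288 to 3555, 914 to 2052 and 1046 to 1132. Ufsp1 was at 42.9 ± 5.57 CPM in gel, 23.5 ± 4.58 in PBS and 29.5 ± 4.61 in uninjured muscle (SD, n = 4 each). It rose in gel over PBS by 0.87 ± 0.16 on the log2 scale (edgeR adjusted p = 0.00236) and in gel over uninjured muscle by 0.54 ± 0.16 (0.0201), a call lost without gel library 2 (0.0715) or uninjured library 2 (0.0724). The nearest coding genes of Prima1, Unc79 and Fam181a, were too low to test.

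Other genes of the cholinergic synapse were counted from lists written with earlier results of these data known. Of the genes for making and loading acetylcholine in the nerve ending, Chat, Slc18a3 and Slc5a7 had 0 counts in each of the 12 libraries, where motor neuron cell bodies lie outside the muscle. The general choline transporter gene Slc44a1 was not called in any of the 3 comparisons.

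Of 5 subunits of the muscle acetylcholine receptor, 4 rose and 0 fell in gel over uninjured muscle, and Chrne was not called (25.6% of all genes called; median log2 fold change 1.37, all genes 0.03). Chrnb1, the beta subunit, was at 107 ± 25.1 CPM in gel, 59.7 ± 18.3 in PBS and 52.3 ± 2.50 in uninjured muscle, and Chrng, the subunit of embryonic and denervated muscle, at 4.91 ± 3.06, 2.05 ± 2.56 and 0.450 ± 0.345 CPM in the same order (SD, n = 4 each). Over uninjured muscle Chrnb1 rose by 1.03 ± 0.20 and Chrng by 3.42 ± 0.90 on the log2 scale (edgeR adjusted p = 0.00216 and 0.0164). Chrne stood at 0.81 ± 0.29 (0.0600), with each gel library above each uninjured library. It passed in DESeq2 (0.0188), which called all 5, in the 2 groups alone (0.0149) and without PBS library 3 (0.00714). With the replicate number as a block the adjusted p was 0.00809, but these numbers pair no animals and nothing is read from it. Chrne did not pass in 3 of 6 alternatives (adjusted p up to 0.115). Nor did it pass in 11 of 12 fits with a library left out (up to 0.144).

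The other 2 calls, Chrna1 at 1.70 and Chrnd at 1.37, were not kept in every setting. That of Chrnd did not hold when gel library 4 (adjusted p = 0.0636) or uninjured library 1 (0.0543) or 2 (0.0538) was left out. That of Chrna1 was lost without gel library 2 (0.0741), 3 (0.0641) or 4 (0.129) and without any 1 of the uninjured libraries (0.0632 to 0.104), and also with no filter on low counts (0.0722) and in limma voom (0.0704).

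In gel over PBS 2 of the 5 subunits rose and 0 fell (29.8% of all genes called, 16.6% higher and 13.2% lower; median 0.84, all genes 0.04). They were Chrnb1, at 0.84 ± 0.20 (edgeR adjusted p = 0.00650), and Chrne, the adult subunit, at 1.02 ± 0.29 (0.0215). With the animal as a block the call of Chrne was lost (0.0681), as it was without gel library 4 (0.0501), while Chrnd (0.0487) and Chrng (0.0250) passed. In PBS over uninjured muscle edgeR called 0 of the 5, with 2 at an unadjusted p under 0.05 and a median of 0.80. The smallest adjusted p was that of Chrna1 (0.0831), the 1 subunit that DESeq2 called (0.0148).

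Of 11 organisers and basal lamina partners of the synapse, 1 rose and 1 fell in gel over uninjured muscle (25.6% of all genes called), and 2 rose and 1 fell in PBS over uninjured muscle (6.17% of all genes called). The call of Dag1 in PBS over uninjured muscle was lost without uninjured library 4 (adjusted p = 0.0512). Lrp4, the agrin receptor, rose in gel by 1.10 ± 0.18 and in PBS by 0.89 ± 0.18 on the log2 scale (edgeR adjusted p = 0.000681 and 0.00783). Dok7, an adaptor of MuSK, was at 35.9 ± 4.70 CPM in gel, 27.5 ± 0.909 in PBS and 55.3 ± 3.66 in uninjured muscle (SD, n = 4 each). It fell by 0.62 ± 0.11 in gel and by 1.01 ± 0.11 in PBS (adjusted p = 0.00124 and 0.000116). The genes of the known ColQ partners were not called: Hspg2, for perlecan, was at 0.01 ± 0.21 in gel over uninjured muscle and Musk at -0.72 ± 0.41 (adjusted p = 0.977 and 0.214).

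In gel over PBS 2 of the 11 rose and 1 fell, about the share of all genes called (29.8%, with 16.6% higher and 13.2% lower; median 0.05, all genes 0.04). Dag1, for dystroglycan, fell by 0.58 ± 0.17 and Dok7 rose by 0.38 ± 0.11 on the log2 scale (edgeR adjusted p = 0.0164 and 0.0181). The other call was Agrn, for the synaptic organiser agrin, at 0.47 ± 0.15 (0.0275). Which cells the Agrn RNA came from was not tested. With the animal as a block 0 of these 3 calls held (adjusted p = 0.0588 for Dag1, 0.0664 for Dok7 and 0.0641 for Agrn). That of Dag1 was also lost without PBS library 1 (0.0503) or 2 (0.0543), and that of Dok7 in the 2 groups alone (0.0545) and without PBS library 2 (0.0525). Agrn did not pass in a fit of gel and PBS only (0.0701), nor when gel library 1 (0.0848), gel library 4 (0.0548), PBS library 1 (0.0631) or PBS library 3 (0.0880) was left out.

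**Figure D4:**
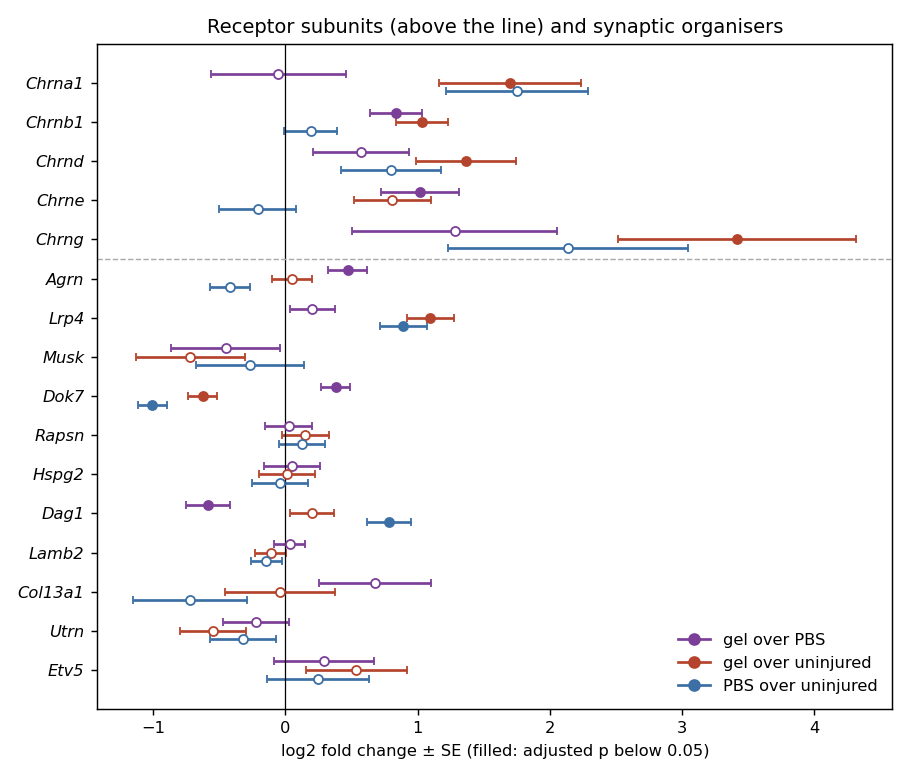
The log2 fold change (horizontal axis, ± SE) of 5 receptor subunit genes, above the dashed line, and 11 synaptic organiser genes in the 3 comparisons. Filled points passed an adjusted p of 0.05 in edgeR. The receptor genes lie to the right of 0 in gel over uninjured muscle, and Dok7 lies to the left in gel and PBS over uninjured muscle.

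Of 7 genes that denervation is known to raise, 4 rose and 0 fell in gel over uninjured muscle (median 1.70; 14.5% of all genes called higher, 11.1% lower), and 2 rose and 0 fell in gel over PBS (median 0.64; 16.6% higher, 13.2% lower). In PBS over uninjured muscle edgeR called 0 of the 7, with 4 at an unadjusted p under 0.05, and DESeq2 called 2, Myog and Chrna1. The list shares Chrng and Chrna1 with the receptor list. Ncam1, a cell adhesion gene, rose over uninjured muscle by 2.06 ± 0.31 and Myog, a myogenic factor, by 3.13 ± 0.47 on the log2 scale (edgeR adjusted p = 0.000876 and 0.00104). The others of the list, Runx1, Gadd45a and Hdac4, were not called in the 3 comparisons. Of 3 subunits of the prolyl hydroxylase that modifies collagens, P4ha2 fell in gel over uninjured muscle by 0.85 ± 0.14 (adjusted p = 0.000681) and the other 2 were not called. Of 3 neuroligins, adhesion proteins with a cholinesterase-like domain, 1 was tested: Nlgn2 stood at 0.92 ± 0.30 (0.0393), a call lost without any 1 gel library other than gel library 3 (0.0930 to 0.123) and without any 1 uninjured library (0.0782 to 0.0894). It was also lost with no filter (0.0696), in voom (0.118) and in the 2 groups alone (0.0603). With the replicate number as a block, which pairs no animals here, the adjusted p was 0.0856. In gel over PBS Nlgn2 rose by 1.28 ± 0.30 (edgeR adjusted p = 0.00854), although gel library 3 (8.79 CPM) lay within the PBS range. That call was kept in all 6 alternatives and with each of the 12 libraries left out.

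Markers of some other cells, not of all, differed between gel and uninjured muscle. Of 8 macrophage markers 8 rose and 0 fell in gel over uninjured muscle (14.5% of all genes called higher, 11.1% lower). Their summed level was 926, 1421, 93.5 and 1686 CPM in gel libraries 1 to 4. It was 27.5 to 57.1 CPM in PBS and 38.4 to 76.1 CPM in uninjured libraries. Gel library 3, with few macrophage transcripts, had the highest Ache (189 CPM), Bche (9.16 CPM) and Colq (14.2 CPM) of the gel group and 10 Prima1 counts. This library also had summed fibre markers of 136195 CPM, against 98779 to 110564 CPM in the other gel libraries. Its summed fibroblast markers were at 514 CPM, against 2608 to 3078 CPM. Without it, gel over uninjured was 1.02 for Ache, 1.33 for Bche, 0.54 for Colq and -4.45 for Prima1 on the log2 scale. Beyond these values the part of macrophages in the results was not tested.

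Schwann cells, which ensheath motor axons, were followed by 8 markers, of which 7 were tested. In each of the 3 comparisons edgeR called 0 of them, with 0 at an unadjusted p under 0.05, and DESeq2 called 0. Their summed level was 23.0 to 145 CPM in gel, 19.3 to 154 CPM in PBS and 58.8 to 103 CPM in uninjured libraries, and Gfap was at 0 in the uninjured libraries. Of 6 fibroblast markers 3 rose and 0 fell in gel over uninjured muscle (14.5% of all genes called higher, 11.1% lower). Of 4 tendon markers 2 fell there, and 3 fell in PBS over uninjured muscle (3.39% of all genes called lower). Of the 2 tested adipocyte and 4 endothelial markers edgeR called 0 in gel over uninjured muscle. There 0 were at an unadjusted p under 0.05, and DESeq2 called 0. Of the 8 fibre markers 4 fell and 0 rose in gel over uninjured muscle (11.1% of all genes called lower, 14.5% higher). At an unadjusted p under 0.05 were 7 of the 8, all but Myh1, and DESeq2 called the same 7. The part of fibre content in the results was not tested.

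**Figure D5:**
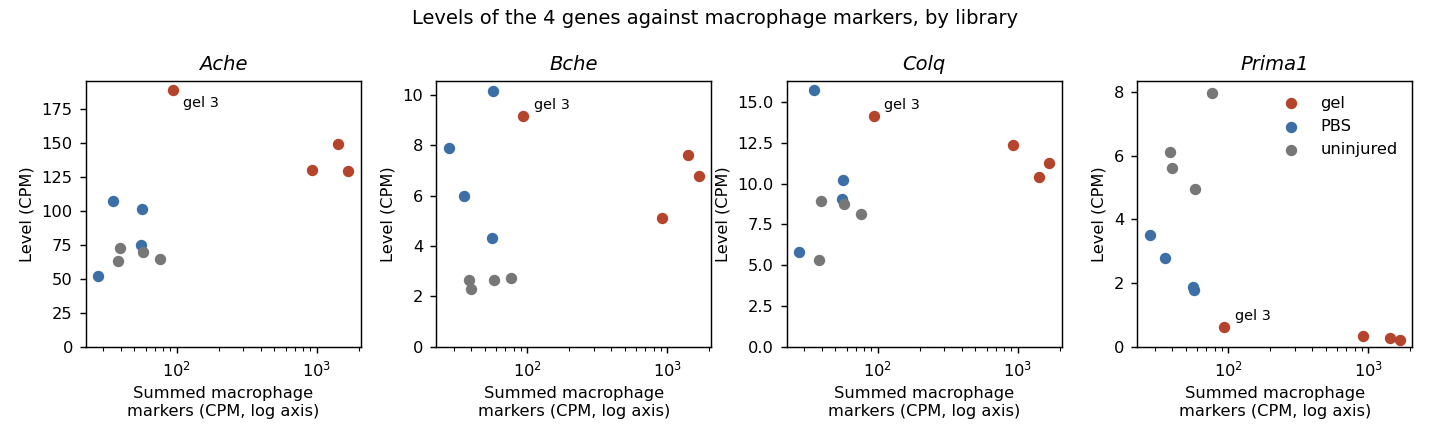
Level in CPM of each gene (vertical axis) against the summed level of 8 macrophage markers (horizontal log axis, CPM) in the 12 libraries, coloured by group. Gel library 3, at 93.5 CPM of macrophage markers, lies with the other gel libraries for Ache and Prima1.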

How the data were processed

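RNA was extracted and libraries were made by BGI, per the labels' protocols. The deposited files hold counts per gene symbol, 1 file a library. STAR, edgeR and the build mm39 are named in the submitters' processing notes, without versions. The counter, annotation and strand setting are not named there. Of the counts between 1 and 50 in a library, 74.3 to 83.6% were even, so a count may not stand for 1 fragment, and no counting interval is given.

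Counts were tested with edgeR 4.0.16 in R 4.3.3 (filterByExpr, TMM, robust quasi-likelihood, all 12 libraries, 1 coefficient a group, Benjamini-Hochberg over 13499 genes, called at an adjusted p under 0.05). The edgeR step was run on simulated counts with independent libraries and the same dispersion for every gene. That setting is simpler than these data, so it checks the code and not the fit to these libraries. CPM uses TMM library sizes. Alternatives were DESeq2 size factors, no filter, DESeq2 1.42.0, limma 3.58.1 with voom, the 2 groups alone, the replicate number as a block, and leaving out each library.

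Gel and PBS libraries of the same number are paired through the animal in the deposited names; their deviations from group means correlated at 0.143, -0.0559, 0.311 and 0.0797. Uninjured numbers pair nothing. Nothing else says how separate the uninjured samples were, so p-values measure the spread between these samples. Replicates differed by more than sampling noise (chi-square per gene at least 6.5).

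The 4 genes and all lists were chosen with earlier results of these data known. From each list the text names up to 2 genes with the smallest p in the comparison described. The other named list genes were added after their values were seen. They include Chrna1, Chrnd and Chrne in gel over uninjured muscle and Chrna1, Chrnd and Chrng in gel over PBS. They also include Chrnb1, Chrne and Dag1 in PBS over uninjured muscle, and Agrn, Hspg2, Musk, Runx1, Gadd45a and Hdac4. From the list of denervation genes 1 gene that was not called is not reported here, and the counts and medians of that list leave it out.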

Additional observations from a re-analysis of the deposited data

Results flagged for a closer look

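The log2 ratio of Prima1 to Colq counts in PBS library 3 lay far from those of the other PBS libraries: its gap to the nearest of them was 0.865 of the range of the group, above Dixon's critical value of 0.829 for 4 samples. The library had 61 Prima1 and 101 Colq counts, or 60.4 Prima1 per 100 Colq, against 17.4 to 20.5 in PBS libraries 1, 2 and 4. Of 15 groups of 4 values tested in this way this was the 1 that passed, and chance passes about 1 in 20.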

How the results depend on the processing

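Ache and Bche in gel over uninjured muscle, Prima1 in gel over uninjured muscle and Bche in PBS over uninjured muscle kept their direction and their call under every alternative run with a test. The cause of the changes below was not tested. Bche in gel over PBS, near 0, was -0.0068 with DESeq2 size factors, -0.0070 without a filter and -0.0073 in DESeq2, and -0.18 to 0.24 with a library left out. Colq in gel over uninjured muscle was 0.65 in the 2 groups alone, 0.66 with the replicate block (adjusted p = 0.0289), though these numbers pair no animals, and 0.49 to 0.70 with a library left out. Prima1 in PBS over uninjured muscle was -1.52 to -1.17, and its ratio to Colq -2.09 to -1.49, with a library left out. That ratio in gel over uninjured muscle, with a replicate block that likewise pairs no animals, was -4.72 (exact sign-flip permutation p = 0.125, the smallest that 4 pairs allow).

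Genes called in gel over PBS numbered 4022, but 2591 in the 2 groups alone, 3009 with the replicate block and 2457 to 5708 with a library left out. In PBS over uninjured muscle they numbered 833, but 1417 in DESeq2, 2330 in the 2 groups alone, 2501 with the replicate block and 388 to 1703 with a library left out. In gel over uninjured muscle they numbered 3449, and 2275 to 5090 with a library left out. Scaling to 8 fibre markers, chosen after seeing the data, gave gel over PBS values of 1.36 for Ache, 0.54 for Bche, 0.81 for Colq and -2.24 for Prima1, and gel over uninjured values of 1.70, 2.00, 1.22 and -3.50 in the same order. Among list genes the direction turned for Chrna1 in gel over PBS (0.14 in voom, 0.11 with the replicate block, -0.38 to 0.69 with a library left out), and with a library left out for Chrne (-0.39 to 0.037, without PBS library 3) and Chrnb1 (-0.041, without PBS library 4, to 0.31) in PBS over uninjured muscle and Agrn in gel over uninjured muscle (-0.12 to 0.12).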
